A study of Mus musculus with 9 samples.

Results

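The genes described here encode the eukaryotic translation initiation factors of mouse retinal ganglion cells (RGCs), the neurons whose axons form the optic nerve. They were taken by symbol, as every gene whose name begins with Eif followed by a digit, and genes on chromosomes X and Y were left out. The rule found 52 genes among the 23997 symbols of the expression files. A further 3 genes, Eif1ax, Eif2s3x and Eif2s3y, lie on the sex chromosomes and were not counted. Of the 52 genes, 51 were measured above 0 in at least 1 library and 50 reached the level required for testing.

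RGCs came from C57BL/6J mice of both sexes that were 8 weeks old at collection. The anterior chamber had received saline in the Control group, and microbeads in eyes later assigned to Mild IOP or Moderate IOP by how far the intraocular pressure (IOP) rose over 2 weeks. Cells were purified by serial immunopanning that ended on an antibody to Thy1.2. RNA was pooled within each group, with fewer retinas in the Moderate IOP pool, and each pool was divided into 3 technical replicates, which gave 9 libraries. A difference between groups is therefore a difference between 3 pools, and its standard error (SE) and p-value measure the spread between libraries of a pool and not between animals.

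Initiation is the step at which a ribosome is placed on the start codon of an mRNA, and it is the main point at which protein synthesis is controlled. In the textbook scheme eIF2 brings the initiator tRNA to the small ribosomal subunit, eIF3 holds the parts together, the eIF4F complex recognizes the cap of the mRNA and unwinds it, and eIF1, eIF1A and eIF5 check the start codon before eIF5B joins the large subunit. Stress acts at a pair of well-known places: kinases that phosphorylate the alpha subunit of eIF2 and so block its recharging by eIF2B, and small proteins that hold eIF4E away from eIF4G when mTOR activity is low.

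Gene expression was given as FPKM, fragments per kilobase of transcript relative to all mapped fragments, and is printed here as scaled FPKM, after division by 1 factor per library. The depth derived from the confidence limits of the files ranged from 4880000 fragments in Moderate IOP replicate 1 to 8780000 in Control replicate 2, and the 52 genes together rested on 28668 to 51628 derived fragments per library. A pair of libraries stood apart. In Mild IOP replicate 2 the microRNA gene Mir1249 held 20.5% of the summed FPKM, and in Moderate IOP replicate 3 Mir8104 held 9.14%, whereas Ubb was the most abundant gene of the other 7 libraries with 1.86% to 3.59%. Initiation factors held 0.582% of the summed FPKM in Mild IOP replicate 2 and 0.703% to 0.784% in the other libraries. The members called between the IOP groups and their median difference are therefore also given without them.

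In Control RGCs the initiation factor mRNAs covered a wide range, and a few small factors dominated. Eif1, which guards the accuracy of start codon choice, was the most abundant at 976, 1023 and 976 scaled FPKM. Eif5a, whose hypusine-modified protein helps ribosomes through difficult peptide bonds, followed at 465, 616 and 557, and Eif1b, a close copy of Eif1, at 249.8, 310.0 and 307. The libraries of these 3 genes did not overlap, so their order was the same in every Control library. Eif4h, a helper of the eIF4A helicase, had 213, 215 and 173. The eIF3 subunit genes Eif3g and Eif3k had 201, 207 and 157 and 157, 207 and 138 in the same libraries. The ranges of Eif4h, Eif3g and Eif3k overlapped, but within each Control library they stood in that order, with Eif3g and Eif3k nearly equal in replicate 2. The median of all 52 genes was 31.0, and in the plot of levels by role each of the larger groups held both abundant and scarce members.

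**Figure D1:**
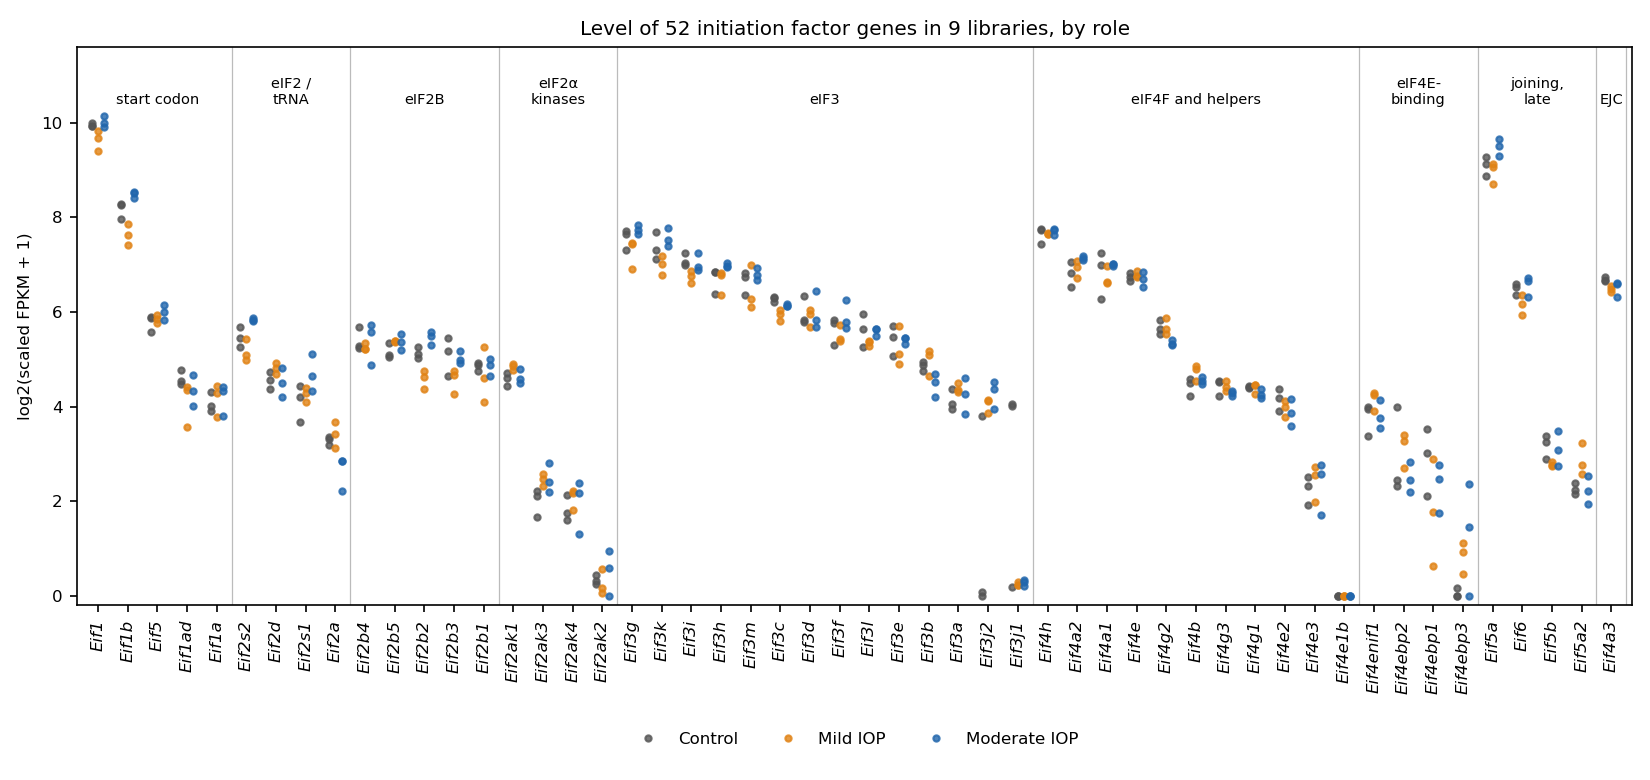
Level of each of the 52 initiation factor genes as log2(scaled FPKM + 1) in the 3 Control (grey), 3 Mild IOP (orange) and 3 Moderate IOP (blue) libraries, grouped by role and ordered by mean level within a role. Eif1, Eif5a and Eif1b stand highest, Eif4e1b is at 0 throughout, and Eif3j1 and Eif3j2 change places between libraries.

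Complexes of fixed composition did not have even mRNA levels. Among the eIF3 subunits the Control means ran from 14.7 ± 1.44 for the sum of the overlapping symbols Eif3j1 and Eif3j2 and 16.5 ± 2.83 for Eif3a, the large scaffold subunit, to 188 for Eif3g, with 76.3 ± 3.17 (SD, n = 3) for Eif3c. The 5 subunits of eIF2B, the exchange factor that recharges eIF2, were closer together, from 28.0 ± 1.74 for Eif2b1 to 41.7 ± 7.62 for Eif2b4. For eIF2 itself, Eif2s2, the beta subunit, had 43.3 ± 6.64 and Eif2s1, the alpha subunit that the stress kinases phosphorylate, had 16.6 ± 4.42. In eIF4F the cap-binding subunit Eif4e had 106 ± 6.10 and the scaffold subunit Eif4g1 had 20.3 ± 0.291, a ratio of 5.22 ± 0.341 that lay between 4.64 and 6.36 in all 9 libraries. Another eIF4G gene, Eif4g3, had 20.6 ± 2.55 and does not enter this ratio. Spread between replicates followed the level: the mean coefficient of variation within groups had a median of 12.7% for the 21 members from 20 to 100 scaled FPKM and 32.9% for the 7 tested members under 5, against 13.6% and 41.8% for all tested genes of those levels.

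Against Control, no initiation factor passed the test in either IOP group. The test was limma's moderated test on log2(scaled FPKM + 1) over 13043 genes with Benjamini-Hochberg adjustment, and a gene was called at an adjusted p below 0.1. In Mild IOP 0 of 50 members were called, where 0.399% of all tested genes were, and 11 members (22.0%, against 10.2% of all tested genes) had an unadjusted p below 0.05. In Moderate IOP 0 of 50 were called, where 1.84% of all tested genes were, and 10 (20.0%, against 15.3%) had an unadjusted p below 0.05. Against Control the members had a median log2 fold change of −0.06 (Mild IOP) and 0.05 (Moderate IOP), beside 0.006 and 0.004 over all tested genes. In Mild IOP this median was −0.013 with the FPKM as deposited and 0.026 with upper-quartile scaling, beside 0.049 and 0.082 over all genes. Both comparisons use the same Control libraries.

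The Control pool differed from the IOP pools in the summed level of lens and rod markers. The 7 lens markers summed to 290.1, 307 and 233 scaled FPKM in Control and to 2.87, 0.890 and 1.77 in Mild IOP and 0.710, 0.600 and 1.62 in Moderate IOP. Of 6 lens markers tested, 5 were called lower in each IOP group. Of all 13043 tested genes, 51 were called lower in Mild IOP and 116 in Moderate IOP. Cryaa, the most abundant lens marker, is an alpha crystallin of lens fibres that the retina can also make. The 8 rod photoreceptor markers, led by Sag, summed to 637, 593 and 544 in Control, 393, 414 and 410.0 in Mild IOP and 379, 402 and 427 in Moderate IOP. All 8 had negative log2 fold changes in both IOP groups, with 2 called lower in Mild IOP and 3 in Moderate IOP. Their part in the levels of the initiation factors was not tested, and in bulk RNA fewer cells of a type and less RNA per cell cannot be told apart.

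Between the IOP groups, 6 of the 50 tested members differed, 5 of them higher in Moderate IOP than in Mild IOP and 1 lower. This was 12% of the members, near the 10.2% called among all tested genes. Higher members were 10% against a background of 7.03%, and lower members 2.0% against 3.12%. With the FPKM as deposited 6 members were called, 3 higher and 3 lower, and 4 of these were among the 6 above, with Eif3k and Eif5a lost and Eif3b and Eif4g2 gained as lower, where 10.7% of all genes were called. With upper-quartile scaling 5 were called, 3 higher and 2 lower, 4 of them among the 6, beside 10.8% of all genes. The median log2 difference of the 50 members, Moderate minus Mild, was 0.15 beside −0.02 over all tested genes. It was 0.069 beside −0.087 with the FPKM as deposited, 0.054 beside −0.098 with upper-quartile scaling, and 0.099 beside −0.011 without Mild IOP replicate 2 and Moderate IOP replicate 3. All Moderate IOP libraries lay above all Mild IOP libraries for 13 members (26.0%, against 14.5% of all tested genes) and below them for 4 (8.0%, against 13.0%).

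**Figure D2:**
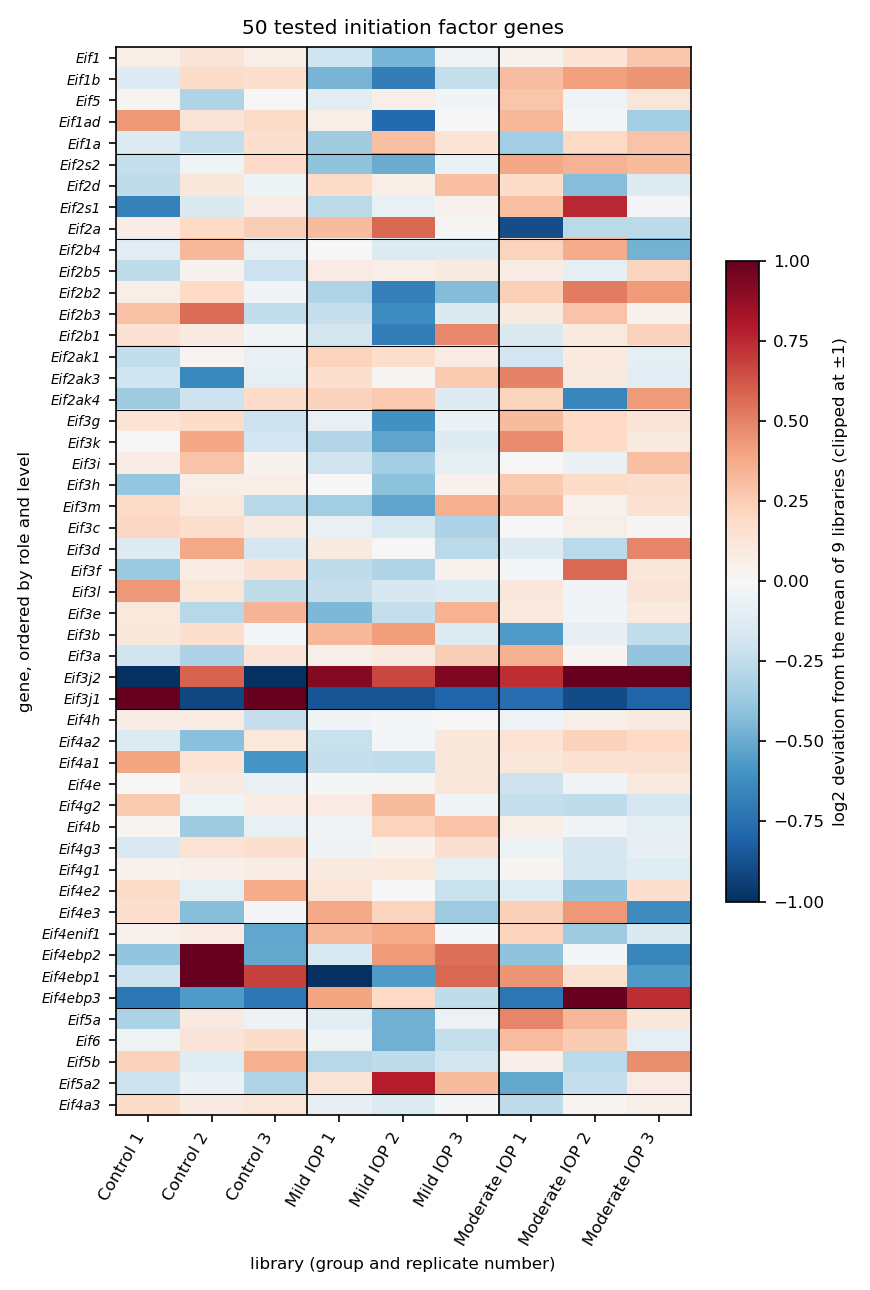
Log2 deviation of each tested member (rows, ordered by role and level) from its mean over the 9 libraries (columns), with red above and blue below the mean and colours clipped at 1. Mild IOP replicate 2 is blue for Eif1b, Eif2b2 and Eif3g, and the opposite pattern of Eif3j1 and Eif3j2 crosses the group lines.

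Eif1b showed one of the clearest differences. The gene (chr9:120492606-120495327, GRCm38) encodes a paralog of eIF1 of the same fold, and its scaled FPKM was 249.8, 310.0 and 307 in Control, 198, 168 and 231 in Mild IOP and 337, 363 and 371 in Moderate IOP. The 3 groups did not overlap in any library, with Mild IOP lowest and Moderate IOP highest. The log2 difference between Moderate and Mild IOP was 0.85 (SE 0.14, adjusted p = 0.009, limma), from 199 ± 31.5 to 357 ± 17.8 scaled FPKM (SD, n = 3 technical replicates). Against Control, the log2 fold change was −0.54 (SE 0.14, adjusted p = 0.2, limma) in Mild IOP and 0.31 (SE 0.14, adjusted p = 0.32, limma) in Moderate IOP. The call between IOP groups held in all 9 fits that each left out 1 library. Eif1 itself (chr11:100319996-100322096) had 976, 1023 and 976 in Control, 813, 677 and 909.7 in Mild IOP and 958, 1025 and 1124 in Moderate IOP. All Moderate IOP libraries again lay above all Mild IOP libraries, but the log2 difference of 0.38 (SE 0.12, adjusted p = 0.103, limma) missed the threshold by a little. The ratio of Eif1 to Eif1b was 4.11, 4.02 and 3.93 in Mild IOP and 2.84, 2.83 and 3.03 in Moderate IOP, without overlap, and 3.91, 3.30 and 3.18 in Control. The coding sequences of this pair are alike, and the handling of reads that match both was not given in the sources used here.

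The other genes listed under start codon recognition showed no call. Eif5, the factor that makes eIF2 hydrolyse its GTP, had a log2 difference between IOP groups of 0.14 (95% interval −0.16 to 0.45). Eif1a and Eif1ad, related to the chromosome X gene left out by the rule, had 0.02 (95% interval −0.48 to 0.52) and 0.24 (95% interval −0.30 to 0.78). All 5 genes of this list had positive differences, where 6315 of all 13043 tested genes were positive. The median of 0.24 was the value of Eif1ad.

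Among the subunits of the exchange factor eIF2B, 1 of 5 was called between IOP groups (20.0%, beside 10.2% of all tested genes). Eif2b2 (chr12:85219513-85226628), the beta subunit of eIF2B, had 33.8, 37.1 and 31.7 in Control, 25.9, 19.8 and 23.6 in Mild IOP and 38.2, 46.8 and 43.6 in Moderate IOP. Every Mild IOP library lay below every Control library, and every Moderate IOP library above. The log2 difference between the IOP groups was 0.87 (SE 0.15, adjusted p = 0.0105, limma), and it passed in all 9 fits without 1 library. The other subunits of the complex had smaller differences, 0.47 (95% interval 0.01 to 0.94) for Eif2b3, 0.19 (−0.36 to 0.74) for Eif2b1, 0.13 (−0.34 to 0.60) for Eif2b4 and −0.01 (−0.32 to 0.29) for Eif2b5, the catalytic subunit. In all, 4 of the 5 differences were positive, beside 6315 of all 13043 tested genes.

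Eif2s2 (chr2:154871410-154892906), the beta subunit of eIF2 and the contact of eIF2B and eIF5, had 37.1, 42.6 and 50.3 in Control, 32.8, 30.8 and 41.7 in Mild IOP and 57.5, 56.1 and 54.9 in Moderate IOP. Moderate IOP stood above both other groups, while Control and Mild IOP overlapped. Its log2 difference between IOP groups was 0.67 (SE 0.16, adjusted p = 0.0314, limma), and it was called in 7 of the 9 fits without 1 library, but not without Mild IOP replicate 1 or Mild IOP replicate 2. Eif2s1 had 11.8, 17.4 and 20.5 in Control, 16.0, 18.4 and 20.0 in Mild IOP and 24.1, 33.4 and 19.1 in Moderate IOP. Those groups overlapped, and the difference was 0.44 (SE 0.24, adjusted p = 0.31, limma).

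Eif2a and Eif2d are separate proteins that can deliver an initiator tRNA without eIF2, despite the similar names. Eif2a (chr3:58525821-58557501) had 8.06, 8.92 and 9.21 in Control, 9.74, 11.8 and 7.70 in Mild IOP and 3.66, 6.17 and 6.18 in Moderate IOP. It was the single member called lower, with every Moderate IOP library under every library of the other groups, and its log2 difference was −0.77 (SE 0.23, adjusted p = 0.0798, limma). The lowest library rested on 38.1 derived fragments, and the call held in 3 of the 9 fits without 1 library, those without Control replicate 3, Mild IOP replicate 3 or Moderate IOP replicate 3. It was lost with no filter and with the variance of the compared groups alone. Eif2d overlapped between the groups, with a difference of −0.31 (SE 0.18, adjusted p = 0.36, limma).

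**Figure D3:**
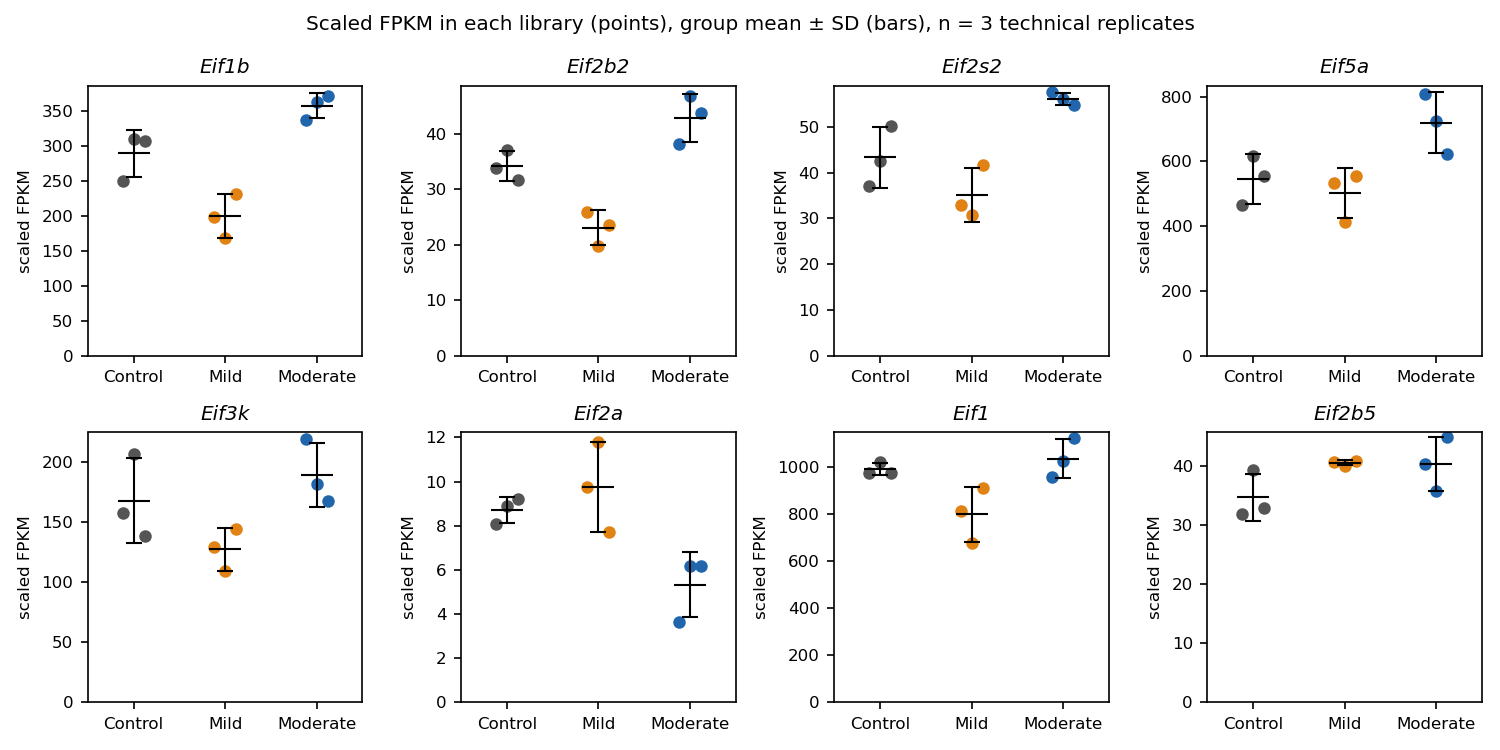
Scaled FPKM of the 6 members that differed between Moderate and Mild IOP, and of Eif1 and Eif2b5, in each library (points), with the group mean and SD (bars, n = 3 technical replicates) and axes from 0. Mild IOP is lowest for Eif1b and Eif2b2, Moderate IOP is lowest for Eif2a, and the groups overlap for Eif2b5.

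The kinases that phosphorylate eIF2alpha were scarce apart from Eif2ak1. Eif2ak1, the heme-regulated kinase HRI, which also relays mitochondrial stress, had 20.6, 25.2 and 23.4 in Control, 29.0, 28.0 and 26.3 in Mild IOP and 21.5, 26.5 and 23.0 in Moderate IOP. Eif2ak3, the kinase PERK of the endoplasmic reticulum, had 3.31, 2.17 and 3.66 in Control, 4.56, 3.97 and 4.94 in Mild IOP and 5.96, 4.26 and 3.60 in Moderate IOP. Both had a higher mean in Mild IOP than in Control, but neither passed. Their log2 fold changes were 0.26 (SE 0.14, adjusted p = 0.61, limma) and 0.46 (SE 0.25, adjusted p = 0.6, limma). Eif2ak4, the amino acid sensor GCN2, had 2.02, 2.35 and 3.38 in Control, 3.54, 3.63 and 2.53 in Mild IOP and 3.51, 1.46 and 4.18 in Moderate IOP, with overlap throughout and an adjusted p of 0.85 in Mild IOP (limma). Eif2ak2, the double-stranded RNA sensor PKR, lay between 0 and 0.923 in all 9 libraries, under the level required for testing.

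Among the eIF3 subunits, 12 of 14 had a positive difference between Moderate and Mild IOP, with a median log2 difference of 0.24. Over all tested genes 6315 of 13043 were positive, and the 14 include the overlapping symbols Eif3j1 and Eif3j2. Of the 14, 1 passed the test (7.14%, beside 10.2% of all tested genes). Eif3k (chr7:28971372-28981888), a peripheral subunit, had 157, 207 and 138 in Control, 129, 109 and 144 in Mild IOP and 219, 181 and 168 in Moderate IOP. All Moderate IOP libraries lay above all Mild IOP libraries and Control overlapped both, with a log2 difference of 0.57 (SE 0.17, adjusted p = 0.0788, limma) that held in 4 of the 9 fits without 1 library, those without Control replicate 2, Control replicate 3, Mild IOP replicate 3 or Moderate IOP replicate 3. Eif3k was not called under either other scaling, with no filter, with no variance trend or with a replicate block. Eif3g, a subunit of the module at the mRNA entry side of the ribosome, had 201, 207 and 157 in Control, 173, 119.7 and 174 in Mild IOP and 228, 210.3 and 199.8 in Moderate IOP. Its groups were ordered in the same way, and the difference was 0.47 (SE 0.16, adjusted p = 0.13, limma). Eif3b, which with Eif3i and Eif3g forms a module of its own, was lower in the Moderate IOP mean, with 28.5, 29.6 and 26.0 in Control, 33.2, 35.3 and 23.9 in Mild IOP and 17.4, 24.8 and 21.9 in Moderate IOP. Moderate IOP replicate 2 and Mild IOP replicate 3 overlapped, and the log2 difference of Eif3b was −0.50 (SE 0.18, adjusted p = 0.14, limma). With the FPKM as deposited, with the stricter filter and without Mild IOP replicate 3 it was called. The stricter filter, a mean of at least 5 scaled FPKM, also called Eif3g and Eif1. The differences of Eif3i, Eif3h, Eif3l and Eif3c were 0.29, 0.33, 0.25 and 0.21, each with all Moderate IOP libraries above all Mild IOP libraries and none called. For the remaining subunits Eif3a, Eif3d, Eif3e, Eif3f and Eif3m the groups overlapped, with differences from −0.14 to 0.39.

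Eif3j1 and Eif3j2 need a separate account. Both symbols cover nearly the same stretch (chr2:122028580-122053632 and chr2:122028583-122053631) and encode a loosely bound eIF3 subunit. Eif3j1 had 15.7, 0.139 and 15.2 in Control, 0.176, 0.177 and 0.228 in Mild IOP and 0.262, 0.148 and 0.230 in Moderate IOP, and Eif3j2 had 0.00340, 12.9 and 0.0603 in Control, 16.5, 13.6 and 16.6 in Mild IOP and 14.4, 19.7 and 22.0 in Moderate IOP. In each library 1 of the pair carried nearly the whole value, Eif3j1 in 2 of the Control replicates, 1 and 3, and Eif3j2 in the other 7. The large fitted log2 fold changes against Control, −2.48 (SE 0.81, adjusted p = 0.19, limma) for Eif3j1 and 2.98 (SE 0.78, adjusted p = 0.11, limma) for Eif3j2 in Moderate IOP, belong to entries that overlap, and they are uncertain. Without Control replicate 2 both symbols were called in both IOP groups. The sum of the pair, added after the values were seen, was 15.7, 13.0 and 15.3 in Control, 16.6, 13.8 and 16.8 in Mild IOP and 14.7, 19.8 and 22.2 in Moderate IOP, with log2 fold changes of 0.10 (SE 0.18, adjusted p = 0.92, limma) in Mild IOP and 0.33 (SE 0.18, adjusted p = 0.42, limma) in Moderate IOP.

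The eIF4F group gave no call. Of its 11 genes 10 were tested and 0 were called in any comparison, with a median log2 difference of −0.09 between IOP groups. Limma gave 0, 2 and 1 of them an unadjusted p below 0.05 against Control in Mild IOP, against Control in Moderate IOP and for Moderate against Mild IOP. Over all tested genes 10.2%, 15.3% and 21.8% had such a p in these comparisons, and 0.399%, 1.84% and 10.2% were called. Eif4h had 213, 215 and 173 in Control, 199, 200.1 and 204 in Mild IOP and 197, 211 and 215 in Moderate IOP. Its groups overlapped, and the 95% interval of its difference was −0.20 to 0.30. Eif4e, the cap-binding protein, had a difference of −0.09 (95% interval −0.35 to 0.17), and Eif4g1 one of −0.13 (−0.44 to 0.18). Eif4g2, a relative of eIF4G that lacks the eIF4E-binding part and serves cap-independent initiation, had 55.6, 45.1 and 48.8 in Control, 49.2, 57.8 and 45.6 in Mild IOP and 39.1, 38.6 and 41.3 in Moderate IOP. Every Moderate IOP library lay below all others, with a log2 difference from Mild IOP of −0.34 (SE 0.14, adjusted p = 0.17, limma). With the FPKM as deposited and with upper-quartile scaling it was called.

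The helicase subunit is encoded by a pair of close paralogs. Eif4a1 had 151, 127 and 76.1 in Control, 98.0, 96.7 and 125 in Mild IOP and 124, 127 and 127 in Moderate IOP, and Eif4a2, the form common in neurons, had 112, 91.7 and 132 in Control, 105, 122 and 133 in Mild IOP and 135, 144 and 141 in Moderate IOP. Control replicate 3 was alone in having Eif4a1 well under Eif4a2, at a ratio of 0.576 against 1.35 and 1.38 in the other Control libraries and 0.794 to 0.936 in the IOP libraries. The ratio was the most even in Moderate IOP, at 0.902 ± 0.019, and reads that match both genes limit what it can show. Eif4b, Eif4g3, Eif4e2 and Eif4e3 had differences of −0.18, −0.15, −0.09 and −0.07 between IOP groups. Eif4e1b, a form of eIF4E known from oocytes, was listed at 0 in all 9 libraries.

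The proteins that hold eIF4E away from eIF4G were scarce and variable. Eif4ebp1 had 3.32, 10.5 and 7.07 in Control, 0.546, 2.39 and 6.47 in Mild IOP and 5.81, 4.57 and 2.38 in Moderate IOP. Eif4ebp2, the main form in brain, had 4.44, 14.8 and 4.03 in Control, 5.45, 8.65 and 9.50 in Mild IOP and 4.42, 6.12 and 3.57 in Moderate IOP, with Control replicate 2 far above the other Control libraries. Eif4ebp3 had 0, 0.113 and 0 in Control, 1.17, 0.889 and 0.383 in Mild IOP and 0, 4.17 and 1.75 in Moderate IOP. The groups of Eif4ebp1 and Eif4ebp2 overlapped, and the Eif4ebp3 libraries of Mild IOP lay above those of Control at values near 1. Their adjusted p-values between IOP groups were 0.59, 0.4 and 0.66 (limma), and the SEs of 0.54, 0.40 and 0.50 leave wide intervals, such as −0.61 to 1.75 for Eif4ebp1. Eif4enif1, which carries eIF4E into the nucleus and to processing bodies, had 14.5, 14.8 and 9.46 in Control, 17.8, 18.5 and 13.9 in Mild IOP and 16.5, 10.8 and 12.6 in Moderate IOP, with overlap and a difference of −0.32 (SE 0.22, adjusted p = 0.44, limma).

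Of the factors that act at subunit joining and later, Eif5a was called. Eif5a (chr11:69916712-69921958) had 465, 616 and 557 in Control, 535, 413 and 556 in Mild IOP and 809, 726 and 624 in Moderate IOP. Moderate IOP stood above both other groups, which overlapped each other, and the log2 difference was 0.53 (SE 0.15, adjusted p = 0.0759, limma), held in 5 of the 9 fits without 1 library, those without any one Control replicate, Mild IOP replicate 3 or Moderate IOP replicate 3. Eif5a was not called with the FPKM as deposited, with upper-quartile scaling, with no filter, with the variance of the compared groups alone, with no variance trend or with a replicate block. Its paralog Eif5a2, far less abundant, had 3.70, 4.19 and 3.42 in Control, 4.96, 8.37 and 5.79 in Mild IOP and 2.82, 3.64 and 4.76 in Moderate IOP. There every Mild IOP library lay above all others, and the difference of −0.63 (SE 0.25, adjusted p = 0.17, limma) did not pass. Eif6, which keeps the ribosomal subunits apart until release, had 81.2, 91.5 and 95.4 in Control, 81.5, 59.8 and 71.0 in Mild IOP and 104, 100.2 and 78.7 in Moderate IOP, where Mild IOP replicate 1 and Moderate IOP replicate 3 overlapped and the difference was 0.41 (SE 0.15, adjusted p = 0.15, limma). It was called without Moderate IOP replicate 3. Eif5b, the GTPase of subunit joining, had 0.32 (95% interval −0.18 to 0.83). Eif4a3, a relative of eIF4A that marks spliced mRNAs in the exon junction complex, had 0.02 (−0.24 to 0.28).

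**Figure D4:**
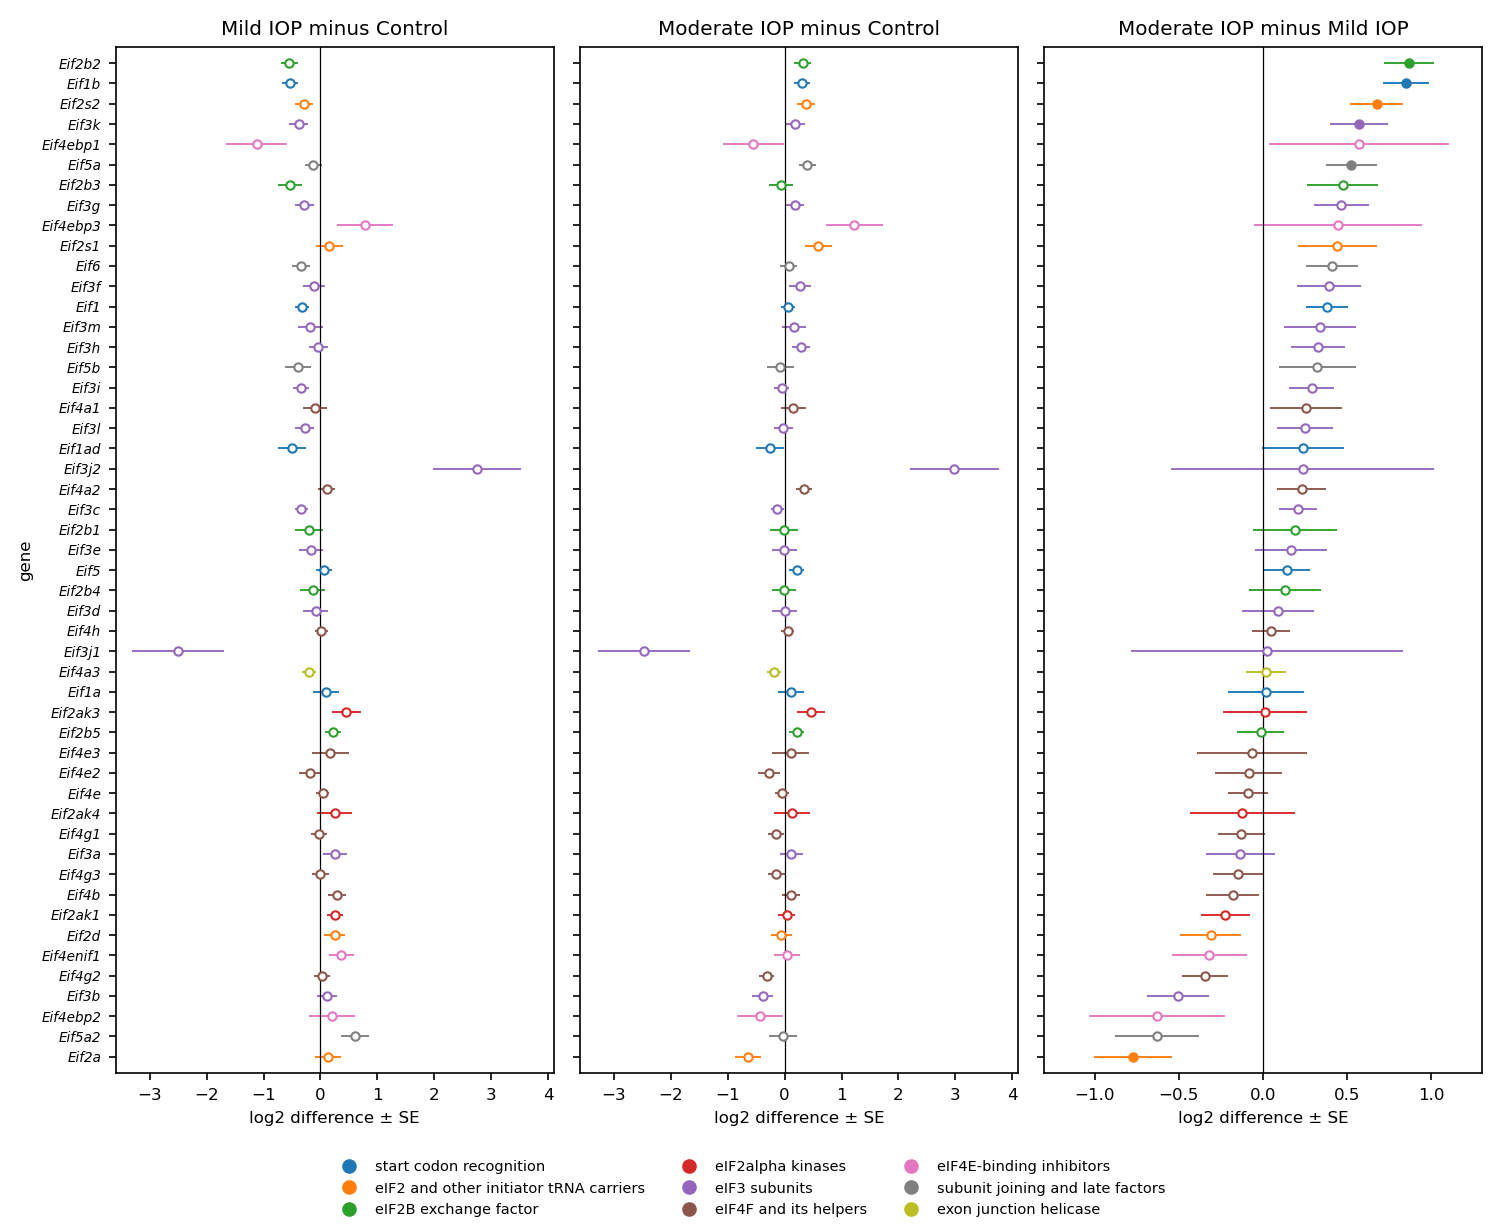
Log2 difference with its SE for each tested member in the 3 comparisons, ordered by the difference between Moderate and Mild IOP and coloured by role, with filled points for an adjusted p below 0.1 (the right panel has a narrower axis). Filled points occur in the right panel alone, 5 above 0 and 1 below, and the long bars of the left and middle panels are Eif3j1 and Eif3j2.

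The members were set beside other parts of the translation machinery. Of the 13 elongation and termination factors 1 was called between IOP groups, Eef1e1, a subunit of the aminoacyl-tRNA synthetase complex in spite of its symbol, with 134, 162 and 156 in Control, 140.0, 116 and 165 in Mild IOP and 199, 199 and 209 in Moderate IOP. Its groups of Mild and Moderate IOP did not overlap, and the log2 difference was 0.54 (SE 0.14, adjusted p = 0.0475, limma). Of 17 genes that signal to initiation 1 was called, Tsc1, a brake on mTOR, with 4.96, 4.42 and 3.47 in Control, 4.39, 5.43 and 4.73 in Mild IOP and 2.42, 2.40 and 3.05 in Moderate IOP. Every Moderate IOP library lay under every Mild IOP library, with a difference of −0.69 (SE 0.22, adjusted p = 0.0951, limma). Without Mild IOP replicate 2 neither was called, with adjusted p = 0.152 for Eef1e1 and 0.299 for Tsc1 (limma). Of the 7 poly(A)-binding proteins and partners and the 10 other initiation and reinitiation factors 0 were called by limma, with 1 and 2 genes at an unadjusted p below 0.05. Of all 47 genes in these lists 2 (4.26%) were called between IOP groups, and 13 had an unadjusted p below 0.05 (limma). Over all tested genes 10.2% were called between IOP groups, and 21.8% had an unadjusted p below 0.05. Against Control, limma called 0 of these 47 genes in either IOP group, with 4 at an unadjusted p below 0.05 in each. Over all tested genes limma called 0.399% in Mild IOP and 1.84% in Moderate IOP. It gave 10.2% and 15.3% an unadjusted p below 0.05.

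Ribosomal proteins were called more often. Of 78 tested, 66 were called higher in Moderate than in Mild IOP and 0 lower, where 7.03% and 3.12% of all tested genes were. The ribosomal proteins had a median log2 difference of 0.94. Of the 50 initiation factors 5 were called higher, with a median of 0.15. Library by library, the median log2 deviation of the ribosomal proteins was −0.40, −0.83 and −0.21 in replicates 1 to 3 of Mild IOP, as against 0.43, 0.39 and 0.34 for those of Moderate IOP. The same medians of the initiation factors were −0.06, −0.05 and −0.01 in Mild IOP and 0.09, 0.05 and 0.09 in Moderate IOP, with 0.01, 0.09 and −0.01 in Control. Mild IOP replicate 2, lowest for the ribosomal proteins, was also lowest for start codon recognition (−0.46), eIF2B (−0.63), the eIF3 subunits (−0.27) and the factors of subunit joining and later (−0.37). It was not the lowest for eIF4F (0.02), eIF2 and the other initiator tRNA carriers (−0.005), the eIF2alpha kinases (0.17), the eIF4E-binding proteins (0.29) or Eif4a3 (−0.14). Without that library 2 members were called, Eif1b and Eif2b2, and 3.97% of all genes, with 45 of the 78 ribosomal proteins higher and a median of 0.76. Without Moderate IOP replicate 3 as well, the same 2 members remained beside 3.36% of all genes, with 40 ribosomal proteins higher and a median of 0.78. The members without overlap between the IOP groups were 13 above and 5 below without the first library (17.2% and 16.0% of all tested genes), and 16 above and 7 below without both (23.9% and 23.8%).

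The pools also differed in marker genes. The 12 RGC markers, led by Sncg, summed to 1821, 1959.6 and 1839 scaled FPKM in Control, 1690.0, 1388 and 1687 in Mild IOP and 2891, 2713 and 2852 in Moderate IOP. Of these 12, 7 were called higher in Moderate than in Mild IOP, where 7.03% of all tested genes were. The 7 amacrine markers, led by Gad1, summed to 783, 766 and 814 in Control, 847, 901 and 842 in Mild IOP and 581, 548 and 597 in Moderate IOP. Of 6 tested, 3 were called lower in Moderate than in Mild IOP, where 3.12% of all tested genes were. The other 3 had positive differences of up to 0.415, and the median of the 6 was −0.18. Of 9 Muller glia and astrocyte markers, led by Glul, the summed level was 41.4 ± 6.29 in Mild and 70.1 ± 17.8 in Moderate IOP, with 1 of 6 tested called higher. The 7 microglial markers, led by C1qa, summed to 11.3 ± 4.57 and 15.2 ± 4.51 with 0 of 6 called by limma, 1 of them at an unadjusted p below 0.05. The 6 bipolar markers, led by Pcp2, summed to 61.9 ± 7.68 in Mild and 92.2 ± 6.03 in Moderate IOP, with 1 called higher. Of these 6, 3 had a positive and 3 a negative difference, with a median of −0.09. Pcp2 alone had means of 32.7 in Mild and 65.9 in Moderate IOP. The sums of the RGC, amacrine, bipolar and Muller glia and astrocyte lists did not overlap between the Mild and Moderate IOP libraries, as for Eif1b, Eif2b2, Eif2s2, Eif5a, Eif3k and Eif2a, and their part in these differences was not tested. The amacrine and bipolar lists held markers that went both ways, and the bipolar sum was led by Pcp2. Defining markers of vessels, Cldn5 and Cdh5, and of pigment epithelium, Rpe65, were at 0 in every library, and those lists summed to at most 3.45 and 3.57. Eif2s3y, a chromosome Y gene outside the rule, had 1.08, 2.38 and 7.66 scaled FPKM in Control, 14.9, 10.2 and 12.8 in Mild IOP and 0.496, 0 and 1.13 in Moderate IOP, without overlap between the IOP groups, so a different share of male cells in the pools cannot be told apart from IOP, and its part in the called differences was not tested. Without Mild IOP replicate 2 the calls were 5 RGC markers higher and 3 amacrine markers lower, and without Moderate IOP replicate 3 as well they were 3 and 3. The Muller glia and astrocyte list had 1 call in both cases, and the bipolar list had 1 without the first library and 0 without both. Of the 12 RGC markers 11 had a mean of 1 or more, the exception being Atoh7, a gene of developing RGCs, and so did 8 of 8 rod, 6 of 6 bipolar and 6 of 7 amacrine markers.

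Transcript length ran alongside the difference between the IOP groups. Over all tested genes with a length, the median log2 difference between Moderate and Mild IOP was 0.57 under 1000 nt, 0.17 from 1000 to 2000 nt, −0.10 from 2000 to 4000 nt and −0.16 above. The shares called higher were 33.6%, 10.1%, 1.96% and 1.27% in these classes. Of the members called higher, Eif3k lay in the shortest class, Eif1b, Eif5a and Eif2b2 in the next and Eif2s2 in the third. The member medians were 0.44 for 3 genes (Eif3k, Eif4e and Eif4ebp3), 0.33 for 19, 0.05 for 19 and −0.14 for 9. These lengths are medians over annotated transcripts, and the derived fragments per FPKM imply another class for 18 of the 50 members, among them Eif4e with 792.5 annotated and 2931 implied nt. By implied length, added after the values were seen, the medians over all genes were 0.53, 0.13, −0.11 and −0.16 and those of the members 0.50, 0.23, −0.04 and −0.13, with Eif1b, Eif3k and Eif5a in the shortest class, Eif2b2 in the next and Eif2s2 and Eif2a in the third. By annotated length and without Mild IOP replicate 2 the medians over all genes were 0.45, 0.12, −0.08 and −0.13, and those of the members 0.46, 0.23, −0.02 and −0.15. Without Moderate IOP replicate 3 as well the members had 0.39, 0.20, 0.03 and −0.16. The part of length in the called differences was not tested.

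**Figure D5:**
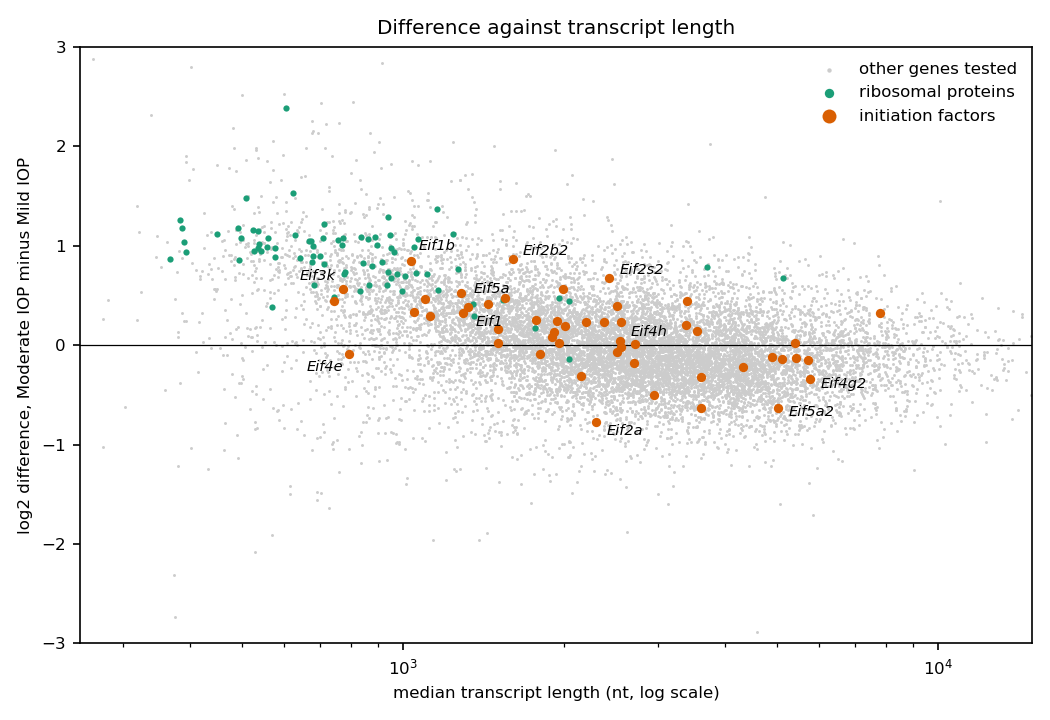
Log2 difference between Moderate and Mild IOP against median transcript length (log scale) for the initiation factors (orange), ribosomal proteins (green) and the other tested genes with a length (grey, 57 of 12430 points lie outside the axes). Short transcripts, ribosomal proteins among them, lie mostly above 0, and the called members Eif2b2 and Eif2s2 lie above 0 and Eif2a below.

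Start sites of the members were examined because mRNAs of the translation machinery can carry a terminal oligopyrimidine tract, a run that begins with C at the first base and places translation of the mRNA under mTOR. RefSeq promoter sequences of GRCm38.p6 matched 40 of the 52 members. A run of C and T letters that begins with C within 5 bases of the annotated start and spans at least 5 letters, searched on the transcribed strand, was held at any of its RefSeq starts by 11 of these 40 (27.5%), and by 10 (25.0%) at the start nearest to the edge of the locus in the files, Eif4enif1 having one at another start. At any start the share was 23.7% of the 9736 tested genes with a match. It was 21.2% of all 27025 RefSeq gene symbols and 46.7% of the 60 matched ribosomal proteins. Windows of 30 bases, 15 on each side of the start, are shown for the members with the longest such runs in eIF3, for the called members Eif2b2, Eif1b and Eif5a, and for the ribosomal protein gene Rps6 as a reference, with the run in capitals.
Eif3f: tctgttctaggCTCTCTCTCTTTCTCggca
Eif3l: gcgcggagttcttcttccgCTCTCTCCCac
Eif2b2: tttcaccgagcggaagttgaCCTCTCTCgg
Eif1b: gcggcgcgcggggctaaatacgcggcgccg
Eif5a: aagtaccgaagccgggatggttgtaatccg
Rps6: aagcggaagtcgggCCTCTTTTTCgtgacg

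The windows of Eif3f (chr7:108934400-108934429, plus strand) and Eif3l (chr15:79075208-79075237, plus strand) held runs of 15 and 9 letters, and Rps6 (chr4:86857353-86857382, minus strand) one of 10. Eif2b2 (chr12:85219466-85219495, plus strand) held a run of 8 that begins 5 bases after the annotated start. No such run was found in the windows of Eif1b (chr9:120492591-120492620, plus strand) or Eif5a (chr11:69921944-69921973, minus strand). The median log2 difference between Moderate and Mild IOP was −0.01 for tested members with a run at any start and 0.14 for those without. Eif3f and Eif3l differed by 0.39 and 0.25, neither called, and Rps6 by 0.80. Another ribosomal protein gene, Rpl23, had no such run in its window and differed by 0.72. For Rps6 and Rpl23 the first listed start was used. The matched ribosomal proteins had median differences of 1.00 with a run at any start and 0.84 without. The search covered annotated starts alone, so a window without a run does not show that the mRNA lacks a tract. The letters CGGAAG, the core bound by ETS factors, occurred on either strand of the 300 bases of 22 of the 40 members (55.0%) at any start and of 20 at the start nearest to the edge of the locus. At any start they occurred in 34.0% of matched tested genes, 18.8% of all RefSeq gene symbols and 66.7% of matched ribosomal proteins. Members with and without them at any start had median differences of 0.11 and 0.05. Without Mild IOP replicate 2 the medians were −0.05 with a run and 0.11 without, and 0.05 and 0.01 with and without CGGAAG, and without Moderate IOP replicate 3 as well they were −0.08, 0.08, 0.03 and 0.04. A match of letters is a description of the sequence and not a bound site.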

How the data were processed

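RNA of purified RGCs was measured in 3 technical replicates of each of 3 pools (Control, Mild IOP, Moderate IOP), and groups and replicate numbers came from the labels. The authors aligned reads to mm10 and estimated FPKM per locus with Cufflinks, so the deposited FPKM and confidence limits are normalized values and not counts. The submitters' processing notes also name FastQC, Trimmomatic, TopHat2 and Cuffdiff. Derived fragments equal the square of 2 × FPKM / (upper limit − FPKM), which covers counting error only, and depth was taken from genes of at least 2000 nt with at least 100 derived fragments, under 100 FPKM.

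FPKM were summed per symbol, divided by median-of-ratios factors and tested as log2(scaled FPKM + 1), a scale that understates the change of low genes, with limma 3.58.1 in R 4.3.3 (3 group means over 9 libraries, variance trend). Genes needed a mean of at least 0.5, and 2 genes with failed estimates were left out. P-values were adjusted over all 13043 genes by Benjamini-Hochberg. Tables and figures used Python 3.11.15, pandas 2.3.3 and matplotlib 3.10.9. Transcript lengths are medians of GENCODE M21 basic transcripts. The fit was tested on simulated data.

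Members, role lists and marker lists were chosen with earlier results of these data known. Values in every library are given for members past the threshold against Control, the 12 with the smallest adjusted p between IOP groups, the 6 highest in Control, the eIF2alpha kinases, the eIF4E-binding proteins and the close paralog pairs. Genes of the other translation lists are named where called, at most 4 a list, and marker lists are given by their sums, counts and most abundant gene. Alternatives covered scaling, pseudocount, filters, failed estimates, variance model, replicate block and the leaving out of libraries. One amacrine marker of the list is not reported here and was left out of its sums. No batch is named in the sources.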

Additional observations from a re-analysis of the deposited data

Results flagged for a closer look

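Each of the 6 members called between the IOP groups had fitted effects of opposite sign in Mild and Moderate IOP against Control, as did 1120 (84.6%) of all 1324 genes called there. The choice of genes with a large difference around a shared Control favours opposite signs, and no effect of these members against Control was called. The log2 difference, Moderate minus Mild, was 0.85 for Eif1b, 0.87 for Eif2b2, 0.67 for Eif2s2, 0.57 for Eif3k, 0.53 for Eif5a (limma adjusted p from 0.009 to 0.0788) and −0.77 for Eif2a (adjusted p = 0.0798, limma). The comparisons with Control share its libraries.

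The initiation factor genes Eif1ax and Eif2s3y, outside the rule, each lay above every Control library in an IOP group. How many of all tested genes were ordered in this way was not counted. Eif1ax on chromosome X had 33.5, 58.0 and 58.5 scaled FPKM in Control and 86.5, 64.0 and 74.8 in Moderate IOP, a mean of 75.1, with 46.1, 41.8 and 48.0 in Mild IOP. Its log2 difference, Moderate minus Mild, was 0.71 (SE 0.21, adjusted p = 0.0734, limma), called in 4 of the 9 fits without 1 library. Eif2s3y, the chromosome Y copy of the eIF2 gamma subunit, had 1.08, 2.38 and 7.66 in Control, 14.9, 10.2 and 12.8 in Mild IOP, a mean of 12.6, and 0.496, 0 and 1.13 in Moderate IOP. Its log2 difference, Moderate minus Mild, was −3.20 (SE 0.47, adjusted p = 0.0063, limma), called in all 9 fits without 1 library, while the chromosome X copy Eif2s3x differed by 0.01 (SE 0.19, adjusted p = 0.99, limma). Against Control neither Eif1ax in Moderate IOP (adjusted p = 0.2, limma) nor Eif2s3y in Mild IOP (adjusted p = 0.2, limma) passed. The sexes of the animals behind each pool were not analysed here. For Eif2s3y a different share of male cells in the pools cannot be told apart from IOP.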

How the results depend on the processing

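The count of members called against Control, 0 in both IOP groups, was unchanged under the settings for pseudocount, scaling, failed estimates and variance. It became 1 in Moderate IOP (Eif3j2) with the stricter filter (at least 5 scaled FPKM on average), and it ranged from 0 to 2 in Mild IOP and from 0 to 2 in Moderate IOP when single libraries were left out. Those calls were Eif3j1 and Eif3j2 without Control replicate 2, Eif1b (Mild IOP) without Mild IOP replicate 3 and Eif4ebp3 (Moderate IOP) without Moderate IOP replicate 1. Between IOP groups the count of 6 became 3 of 51 with no filter on low values, which tests more genes (5.94% of all genes called), and 9 of 43 with the stricter filter (18.7% of all genes). It was 4 with the variance of the compared groups alone (Eif5a and Eif2a lost, 7.92% of all genes) and 4 with no variance trend (Eif5a and Eif3k lost, 6.43%). It was 2 without Mild IOP replicate 1 (Eif1b and Eif2b2, 5.73% of all genes), 2 without Mild IOP replicate 2 (3.97%), 3 without Moderate IOP replicate 1 (6.65%) or 2 (6.02%), 7 without Moderate IOP replicate 3 (with Eif6 added, 8.10%) and 9 without Mild IOP replicate 3 (with Eif1, Eif3b and Eif3m added, 9.54%), the range being 2 to 9, and 2 without Mild IOP replicate 2 and Moderate IOP replicate 3 together (3.36%). Eif1b and Eif2b2 were called under each of these settings.

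The median log2 fold change of members in Mild IOP, −0.06, was −0.013 with FPKM as deposited, 0.026 with upper-quartile scaling and −0.10 with the stricter filter (0.006 over all genes, then 0.049, 0.082 and −0.027), between −0.094 and −0.022 without single libraries, and −0.022 without the pair of libraries named above. Between IOP groups the median of 0.15 was 0.069 with FPKM as deposited and 0.054 with upper-quartile scaling, where the median of all genes went from −0.016 to −0.087 and −0.098, 0.112 to 0.188 without single libraries and 0.099 without that pair. In Moderate IOP against Control it lay between 0.016 and 0.087 without single libraries. Under both other scalings the median of all genes moved in the same direction as that of the members. The cause of the other moves was not tested.

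With a replicate block the counts were 0, 0 and 4 members (Eif1b, Eif2b2, Eif2s2 and Eif2a between IOP groups), beside 0.192%, 1.03% and 8.59% of all genes. Same-numbered libraries shared little: their deviations had a mean correlation of 0.012, and differently numbered ones −0.006, across genes, which are not independent replicates, so the numbers did not pair the libraries. Among 1488 further values of single named genes under an alternative, 1407 stayed on their side of the threshold and within 1 SE where not called, 34 called values lost the call, 16 values gained one, 31 moved by more than 1 SE and 0 changed sign with a call. Summing Eif3j1 and Eif3j2, chosen after seeing the data, left 6 calls. Leaving out 1 library leaves 2 in its group, and depth limits members near 1 scaled FPKM.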
